A study of Homo sapiens with 2 samples.

Results

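The genes described here are 9 members of the p53 pathway, chosen by symbol: the p53 inhibitors MDM2 and MDM4, and the p53-induced genes CDKN1A, GADD45A, SESN1, SESN2, BBC3, TP53INP1 and ZMAT3. All 9 were among the 44591 genes of the deposited table, and all 9 reached 1 CPM, the read count scaled to the size of its library, in at least 1 library, as did 14578 genes in all. The study sequenced polyadenylated RNA of the lines MHCC97H and MHCC97L, human hepatocellular carcinoma cell lines derived from the same parental line and labelled as wild type, with high spontaneous metastatic potential for MHCC97H and low for MHCC97L. Both lines were grown in the same serum-containing medium, and no treatment is given in the labels. Each line had 1 library, of 28967153 counted reads for MHCC97H and 24964246 for MHCC97L. No difference below therefore has a replicate check, no p-value is given, and each comparison is between these 2 libraries rather than between the lines. The 95% intervals cover counting error only, and reads that PCR copied from the same molecule were not told apart.

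p53 is a transcription factor that is kept low in unstressed cells and accumulates after DNA damage, nutrient shortage, nucleolar stress or oncogene activity. MDM2 is a ubiquitin ligase that marks p53 for degradation, and it is itself a p53 target, which closes a negative feedback loop. Its relative MDM4 binds p53 and blocks its activity without being an efficient ligase on its own. Downstream, CDKN1A (p21) and GADD45A restrain the cell cycle, the sestrins SESN1 and SESN2 restrain the growth kinase complex mTORC1 and counter oxidants, and BBC3 (PUMA) and TP53INP1 act in cell death. ZMAT3 is an RNA-binding zinc finger protein. Several of these genes also answer to other stress regulators, SESN2 to ATF4 and NRF2 among them.

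The labelled cell type was checked against its markers. The hepatocyte genes SERPINA1 (5800 CPM in MHCC97H and 8422 CPM in MHCC97L), TTR and HNF4A were present. ALB stood at 1.85 and 5.57 CPM and APOB at 2.60 and 4.51 CPM, and AFP and APOA1 were under the 1 CPM filter in both libraries. All 5 hepatocyte genes that passed the filter had negative log2 ratios of MHCC97H over MHCC97L. Their median was -0.65, or -0.59 with the GC and length trend described below taken out. The epithelial keratins KRT8 (8075 and 9060 CPM) and KRT18 (5275 and 4870 CPM) were abundant. The epithelial genes EPCAM and CDH1 stood at 371.1 and 299.8 CPM and at 13.2 and 14.6 CPM. The 6 leukocyte markers summed to 2706 CPM in MHCC97H and 2454 CPM in MHCC97L, nearly all of it LYZ (2693 and 2443 CPM). PTPRC had 1 and 0 reads and CD3E none in either library. Of 6 fibroblast markers, which summed to 20.2 and 26.0 CPM, 4 passed the filter, with log2 ratios of -1.26 for COL1A2, -1.12 for PDGFRB, -0.22 for COL3A1 and 0.23 for COL1A1. Of 5 endothelial markers, which summed to 96.1 and 123.5 CPM, ENG alone passed the filter. The part of these markers in the results below was not tested. In such bulk RNA, fewer cells that express a gene and less RNA per cell cannot be told apart.

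MDM2 and SESN1 were the members with the largest differences, and for both RefSeq annotates several transcription starts. Promoter windows (250 bases before to 50 after each annotated start) were searched for the consensus p53 response element, a 20-base sequence that reads the same on both strands, allowing 3 mismatches and no spacer. The internal promoter of MDM2 is known to respond to p53, and the allowance was chosen with the matches in MDM2 and SESN1 known. Of 13 windows available for 7 of the 9 genes, 3 held a match: a window at an internal start of SESN1, and overlapping windows at neighbouring internal starts of MDM2, which share the same elements. Across all 35116 RefSeq windows 5.2% held at least 1 match and 0.313% held at least 2. The upstream windows of MDM2 and SESN1 and the windows of MDM4, CDKN1A, SESN2, BBC3 and ZMAT3 held none. That says only that no unspaced match with 3 or fewer mismatches lies in these windows. Elements outside the windows, with a spacer or with more mismatches were not searched for. The windows with matches are shown 5′ to 3′ on the strand of the gene, from RefSeq (GRCh38.p14), with the matches in capitals. That build differs from the hg19 used for the counts, and the counts, being per gene, do not tell which start was used.
MDM2, internal start, chr12:68808767-68809066, plus strand: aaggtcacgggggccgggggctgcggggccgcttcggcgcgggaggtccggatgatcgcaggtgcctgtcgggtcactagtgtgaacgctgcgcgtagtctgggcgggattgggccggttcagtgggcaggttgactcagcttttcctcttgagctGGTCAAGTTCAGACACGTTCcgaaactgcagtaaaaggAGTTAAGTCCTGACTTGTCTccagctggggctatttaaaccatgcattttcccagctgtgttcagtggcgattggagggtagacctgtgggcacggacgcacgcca
SESN1, internal start, chr6:109008939-109009238, minus strand: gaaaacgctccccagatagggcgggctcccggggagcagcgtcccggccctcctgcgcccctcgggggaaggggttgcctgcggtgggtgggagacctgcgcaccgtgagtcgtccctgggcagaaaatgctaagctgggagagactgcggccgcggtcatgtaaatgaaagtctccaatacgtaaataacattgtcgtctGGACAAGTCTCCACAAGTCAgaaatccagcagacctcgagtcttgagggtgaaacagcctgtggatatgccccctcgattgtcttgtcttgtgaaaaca
The MDM2 window held 2 matches, with 2 and 3 mismatches, and the SESN1 window held 1, with 3 mismatches.

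MDM2 and SESN1 were the only members at least 2-fold higher in the MHCC97H library, and no member was at least 2-fold lower. A gene was counted when its scaled counts differed by at least 2-fold (a log2 ratio of at least 1 in size) and its counting interval excluded equality. By that rule 7.03% of all 14578 kept genes were higher and 4.69% lower, beside 2 and 0 of the 9 members, counts too small to set the members apart. The median log2 ratio of the 9 members was 0.10, and that of all kept genes was 0.02. At a 1.5-fold threshold, MDM2 and SESN1 were again the higher members and BBC3 was lower, against 19.3% and 13.8% of all kept genes. Under total counts the members' counts were again 2 and 0, against 11.3% and 3.24% of kept genes, and with a coefficient of variation of 0.2 added to the interval they were 2 and 0, against 6.74% and 4.45%. With the trend of the ratios with GC content and length taken out, as described below, neither MDM2 nor SESN1 met the rule and the counts were 0 and 0. The counting intervals of 4 members lay above equality, those of 2 below it and those of 3 across it. Of all kept genes, 72.8% had an interval that excluded equality.

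**Figure D1:**
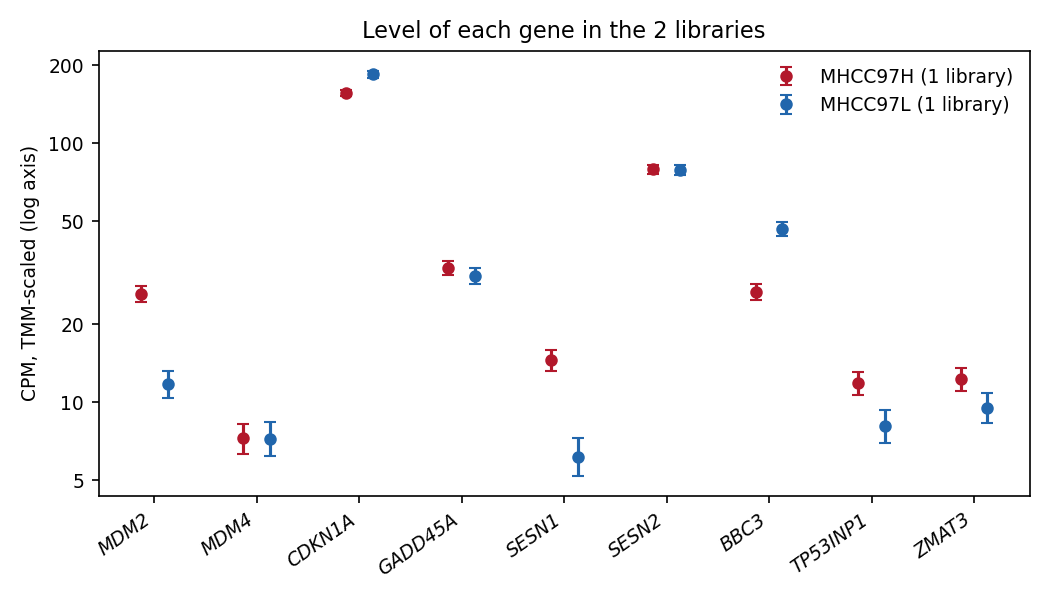
Level of each of the 9 genes (CPM after TMM scaling, log axis) in the MHCC97H library (red) and the MHCC97L library (blue); bars are exact 95% Poisson intervals of the read count. MDM2 and SESN1 stand higher in MHCC97H, BBC3 and CDKN1A stand higher in MHCC97L, and the intervals of MDM4, GADD45A and SESN2 overlap.

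Among the inhibitors of p53, MDM2 had 807 reads in MHCC97H and 276 in MHCC97L, or 26.2 CPM (95% exact Poisson interval 24.5 to 28.1) and 11.7 CPM (10.4 to 13.2). It was 2.23-fold higher in the MHCC97H library (95% exact binomial interval 1.95 to 2.57), at the 95.6th percentile of the log2 ratios of all kept genes. The lower bound of that interval lies under the 2-fold threshold. MDM4 had 223 and 170 reads, or 7.25 CPM (6.33 to 8.27) and 7.23 CPM (6.18 to 8.40), and its ratio was 1.00 (0.818 to 1.23). The interval of MDM4 thus allows a difference of up to 1.23-fold. The balance of the pair can be read within each library, where scaling cancels. Per transcript length, MDM2 stood at 2.89 times MDM4 (2.49 to 3.36) in MHCC97H and at 1.29 times (1.06 to 1.58) in MHCC97L. The change in that balance was 2.23-fold (95% conditional exact interval 1.74 to 2.86).

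Among the genes that restrain the cell cycle, CDKN1A, which encodes the inhibitor of cyclin-dependent kinases p21, was the most abundant member, with 4804 reads in MHCC97H and 4338 in MHCC97L. It took 42.5% of the reads of the 9 genes in MHCC97H and 48.1% in MHCC97L. Its level was 156.2 CPM (151.9 to 160.7) against 184.4 CPM (179.0 to 190.0), 1.18-fold lower in the MHCC97H library (1.13 to 1.23), opposite in direction to MDM2. With the GC and length trend described below taken out, CDKN1A stood on the same side as MDM2, at log2 ratios of 0.09 and 0.56. The read ratio of MDM2 to CDKN1A was 2.64-fold higher in MHCC97H (2.29 to 3.06). GADD45A, which binds cell cycle and stress kinases, had 1014 and 722 reads, or 33.0 CPM (31.0 to 35.1) and 30.7 CPM (28.5 to 33.0). Its log2 ratio was 0.10, with an interval of -0.04 to 0.24 that includes equality.

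The sestrins differed from each other. SESN1 had 446 reads in MHCC97H and 145 in MHCC97L, or 14.5 CPM (13.2 to 15.9) and 6.17 CPM (5.20 to 7.25). It was 2.35-fold higher in the MHCC97H library (1.95 to 2.86), the largest ratio of the 9, at the 96.45th percentile of all kept genes, and here too the lower bound lies under the 2-fold threshold. SESN2 had 2442 and 1856 reads, or 79.4 CPM (76.3 to 82.6) and 78.9 CPM (75.4 to 82.6), with a ratio of 1.01 (0.947 to 1.07). Per transcript length SESN2 was the more abundant sestrin in both libraries, at 5.56 times SESN1 (5.03 to 6.17) in MHCC97H and 13.01 times (11.0 to 15.5) in MHCC97L. The read ratio of SESN1 to SESN2 was 2.34-fold higher in MHCC97H (1.91 to 2.87). Once the GC and length trend described below was taken out, their log2 ratios lay closer together, at 0.83 for SESN1 and 0.32 for SESN2. The intervals of the SESN1 and MDM2 ratios overlap, so these data do not order those genes.

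The cell death genes stood on opposite sides of equality under TMM scaling, but not with the GC and length trend described below taken out (-0.15 for BBC3 and -0.14 for TP53INP1 on the log2 scale). BBC3, whose product binds and blocks the survival proteins of the BCL2 family, had 821 reads in MHCC97H and 1098 in MHCC97L, or 26.7 CPM (24.9 to 28.6) and 46.7 CPM (44.0 to 49.5). It was 1.75-fold lower in the MHCC97H library (1.60 to 1.92), at the 7.74th percentile of all kept genes, and it was the lowest ratio of the 9. TP53INP1, which promotes autophagy and p53-dependent death, had 363 and 190 reads, or 11.8 CPM (10.6 to 13.1) and 8.08 CPM (6.97 to 9.31), a 1.46-fold higher level (1.22 to 1.75) in MHCC97H. ZMAT3, the RNA-binding member, had 378 and 223 reads, or 12.3 CPM (11.1 to 13.6) and 9.48 CPM (8.28 to 10.8), a 1.30-fold higher level (1.10 to 1.54). The read ratio of MDM2 to BBC3 was 3.91-fold higher in MHCC97H (3.31 to 4.62), with the trend left in. Once the trend was taken out, the log2 ratios of the pair lay closer together, at 0.56 for MDM2 and -0.15 for BBC3.

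Per kilobase of transcript, the order of the 9 levels was similar in both libraries at its ends and differed in the middle. CDKN1A was highest, at 68.9 CPM per kilobase in MHCC97H and 81.4 in MHCC97L, and MDM4 was lowest, at 0.720 and 0.718. In MHCC97H, SESN2 (23.0, interval 22.1 to 23.9) and GADD45A (22.0, 20.7 to 23.4) came next with overlapping intervals, ahead of BBC3 (14.5). In MHCC97L, BBC3 (25.4, 23.9 to 27.0) and SESN2 (22.8, 21.8 to 23.9) came next, with intervals that meet at 23.9, and the interval of GADD45A (20.5, 19.05 to 22.1) overlapped that of SESN2. SESN1 ranked 5 in both libraries, at 4.13 and 1.76 CPM per kilobase, and its interval in MHCC97L (1.48 to 2.07) overlapped that of TP53INP1 (1.24 to 1.65). In MHCC97H, TP53INP1 (2.09) and MDM2 (2.08) followed with overlapping intervals, then ZMAT3 (1.31). In MHCC97L the same places held TP53INP1 (1.43), ZMAT3 (1.01) and MDM2 (0.929), and the intervals of ZMAT3 and MDM2, and of MDM2 and MDM4, overlapped. Overlapping intervals do not mean equal levels. The ratio of MDM2 to MDM4 per length in MHCC97L, 1.295 (1.065 to 1.577), had an interval that excluded equality. The lengths are those of the longest coding transcript of each gene in GENCODE 29, from 1496 bases for GADD45A to 12633 bases for MDM2, so a level per length depends on the transcript taken.

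The log2 ratio of all genes fell with the GC content of their transcripts, and the members are given here beside the genes of like GC content. The Spearman correlation of log2 ratio with GC content was -0.64 across 13876 kept genes, which are not independent replicates. MDM2 (41.9% GC), MDM4 (42.4%) and SESN1 (43.4%) fell in the same decile of genes by GC content (41.65 to 44.12%), where the median log2 ratio was 0.42 and 10.6% of 1387 genes were at least 2-fold higher. TP53INP1 and ZMAT3 (39.6% and 39.5%) fell in the decile below, with a median of 0.61. CDKN1A (58.0%), SESN2 (59.5%) and BBC3 (69.7%) fell in deciles with medians of -0.26, -0.36 and -0.45. GADD45A (51.5%) fell where the median was -0.04. MDM4 is thus the member farthest under the median of its decile, while MDM2 and SESN1 are the farthest above theirs.

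**Figure D2:**
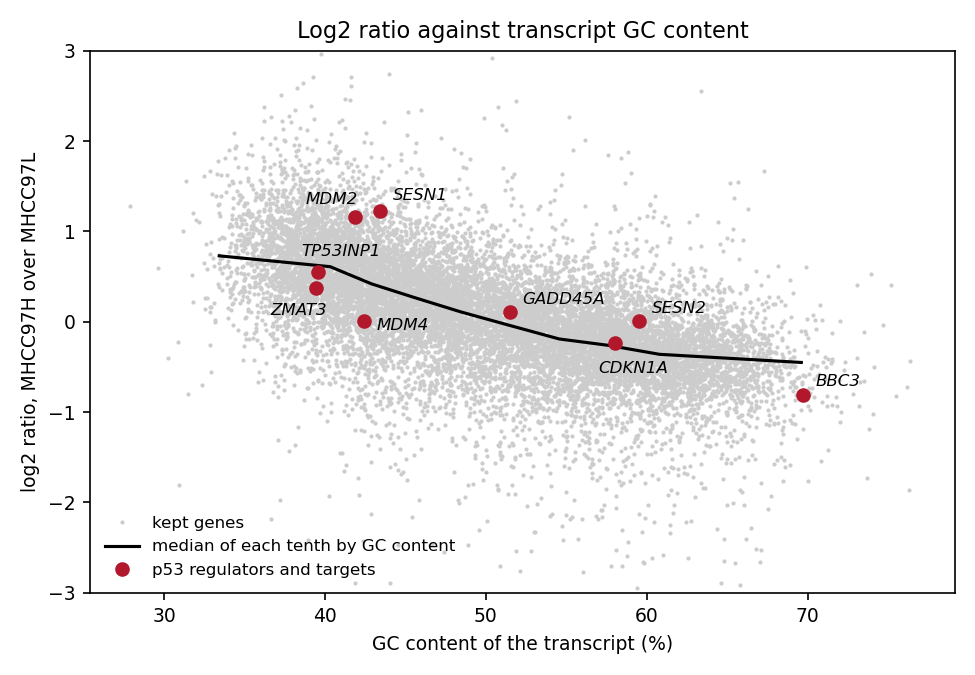
Log2 ratio of MHCC97H over MHCC97L (vertical axis) against GC content of the transcript in percent (horizontal axis) for the kept genes (grey; 29 lie outside the plotted range of -3 to 3), the median of each decile of genes by GC content (line) and the 9 genes (red). The line falls from 0.73 to -0.45; MDM2 and SESN1 lie above it and MDM4 below it.

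After a local regression on GC content and length took the trend out, no member met the 2-fold rule, and among all genes with a value 2.55% were higher and 3.5% lower. With GC content alone taken out, again no member met it, against 2.37% and 3.9%. SESN1 stood at a log2 ratio of 0.83 (0.56 to 1.12) and MDM2 at 0.56 (0.37 to 0.77), still the highest of the 9. SESN2 stood at 0.32 (0.23 to 0.40), GADD45A at 0.30 (0.16 to 0.44) and CDKN1A at 0.09 (0.03 to 0.15), each above its value before removal. BBC3 came to -0.15 (-0.29 to -0.02). TP53INP1 (-0.14, interval -0.40 to 0.12), ZMAT3 (-0.34) and CDKN1A changed sign, as did MDM4, which had been at equality. MDM4 went to -0.54 (-0.84 to -0.24), the lowest of the 9, at the 11.0th percentile of genes with a value. The intervals of MDM2 and MDM4 did not overlap under either treatment, nor did those of SESN1 and SESN2. Whether the trend stems from the libraries or from the cells was not tested, since each line has 1 library.

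**Figure D3:**
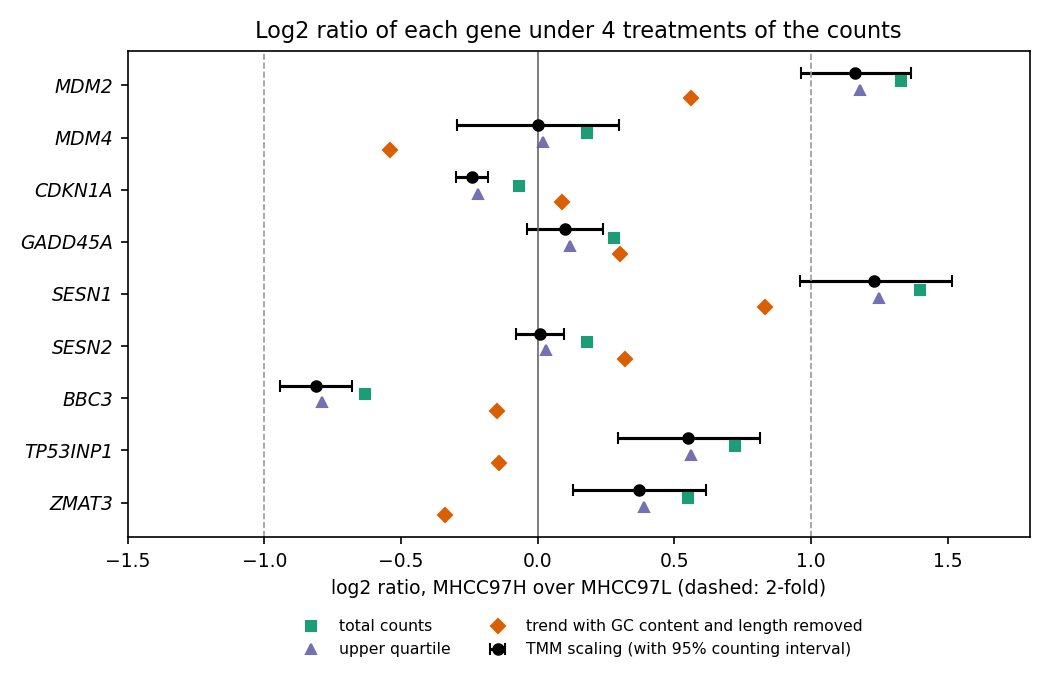
Log2 ratio of MHCC97H over MHCC97L of each gene under TMM scaling (black, with 95% counting interval), total counts (green), upper-quartile scaling (purple) and with the GC and length trend taken out (orange); dashed lines mark 2-fold. MDM2 and SESN1 lie beyond the upper dashed line under the 3 scalings and inside it once the trend is removed, and BBC3 lies below 0 under all 4 treatments.

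Overlapping genes may add reads to a member or take them away. For genes on the opposite strand this depends on the strand setting, which is not given. In GENCODE 29, MDM2 shares 9.21% of its annotated exonic bases with other genes. They are 785 bases with an antisense gene, 439 with a pseudogene on the same strand and 133 with the carboxypeptidase M gene on the opposite strand, which had 101 reads in MHCC97H and 37 in MHCC97L. SESN1 shares 7.09% with an antisense gene, CDKN1A shares 4.79% with the noncoding gene DINOL at its promoter, and BBC3 shares 2.52% with microRNA genes. MDM4, GADD45A, SESN2, TP53INP1 and ZMAT3 share none. Neighbouring genes give the local setting of each member. They are the 5 kept genes on each side of a member in order of start position. The 10 neighbours of MDM2 on chromosome 12 had a median log2 ratio of 0.61 (range -0.91 to 1.36), with 3 at least 2-fold higher. Their median was -0.02 with the trend removed. For SESN1 on chromosome 6 the median of its neighbours was 0.20, or -0.18 with the trend removed over the 9 with a value, and for BBC3 on chromosome 19 it was -0.22, or 0.08.

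The closest relatives of the members had log2 ratios inside the 2-fold limits. GADD45B and GADD45G, stress-induced relatives of GADD45A, stood at -0.73 and -0.70, or at -0.30 and -0.03 with the trend removed. SESN3, the third sestrin, stood at 0.71, with 24.98 CPM in MHCC97H and 15.3 CPM in MHCC97L, or at -0.10 with the trend removed. The CDK inhibitor genes CDKN1B and CDKN1C stood at 0.05 and -0.44, or at -0.07 and 0.07 with the trend removed. TP53INP2, an autophagy gene related to TP53INP1, stood at -0.49, or at -0.28. Of these 6 genes none met the 2-fold rule.

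Upstream of p53, 6 of the 13 listed kinases and damage sensors that activate it were at least 2-fold higher in the MHCC97H library, beside 7.03% of all kept genes. All 13 had a positive log2 ratio, from 0.05 for ATRIP to 1.73 for MRE11, and the median was 0.98, beside 0.02 over all kept genes. The list was written with earlier results of these data known, so these counts are a description only. The interval of ATRIP, named after its value was seen, included equality. Among the 6 were MRE11 (1.73) and RAD50 (1.38), subunits of the complex that senses DNA breaks, TOPBP1 (1.34), an activator of the kinase ATR, and ATR itself (1.27). The kinase genes CHEK1 and CHEK2, chosen after their values were seen, stood at 0.83 and 0.98. With the trend removed none of the 13 met the rule, beside 2.55% higher of all genes with a value, and the median was 0.36, beside 0.03. Not all 13 stayed positive, as RAD17, named after its value was seen, came to -0.10. Of 12 genes that control p53 by feedback or turnover none met the rule, too few genes to set them apart. Of all kept genes 7.03% were higher and 4.69% lower. The median of the 12 was 0.06. HIPK2, a kinase of p53, stood at 0.09 and PPP1R10, a phosphatase subunit, at -0.10. With the trend removed none of the 11 with a value met the rule, and their median was 0.02. Both named genes then changed sign, HIPK2 to -0.09 and PPP1R10 to 0.03. Of 10 ribosomal and nucleolar proteins, most of them known to bind MDM2, the nucleolar genes NCL (1.05) and GNL3 (1.03) were higher, while the median was -0.43 and 7 had negative ratios. With the trend removed neither NCL (0.85) nor GNL3 (0.73) met the rule, RPL23 (-1.07) was lower and the median was -0.24.

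Other genes linked to p53 as targets, listed by function, were mostly inside the 2-fold limits, as were most kept genes. Of all kept genes 7.03% were higher and 4.69% lower, or 2.55% and 3.5% of those with a value once the trend was removed. The counts per list are too small to set these lists apart. Of 16 kept cell death genes none met the rule and the median was -0.10, with the abundant PERP at -0.35 and EI24 at 0.05. Again none met it with the trend removed, where the median was 0.02, PERP stood at -0.92 and EI24 at 0.06. BAX, a mitochondrial death effector related in function to BBC3 and named after its value was seen, stood at -0.48, or -0.01 with the trend removed. Of 11 arrest genes, a list that also holds CDKN1B and CDKN1C, E2F7, a repressor of cell cycle genes, was higher (1.35), and the abundant BTG1, an antiproliferative gene, stood at -0.86. With the trend removed E2F7 (0.88) no longer met the rule and BTG1 (-1.57) was lower. Of 9 repair genes ASCC3, a helicase subunit gene, was higher (1.07, or 0.38 with the trend removed), FANCC stood at 0.25, and the median was 0.35. FANCC came to 0.21 and the median to 0.09 with the trend removed.

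Metabolic, redox and lysosomal targets had a median of -0.06 over 17 kept genes and none met the rule, with the antioxidant enzyme gene GPX1 at -0.77 and the NAD synthetase gene NADSYN1 at -0.13. Their median came to 0.04 with the trend removed, GPX1 to -0.12 and NADSYN1 to 0.18. Of 18 kept genes for secreted or membrane proteins, the growth factor gene KITLG (1.69) and the matrix protein gene THBS1 (1.04) were higher. With the trend removed neither KITLG (0.91) nor THBS1 (0.71) met the rule. Genes of the integrated stress response, which ATF4 directs and to which SESN2 also belongs, had a median of -0.23 over 17 kept genes and none met the rule. ATF4 itself stood at -0.45 and SLC3A2, an amino acid transporter subunit gene, at -0.23. The median of these stress response genes came to -0.10 with the trend removed, ATF4 to -0.12 and SLC3A2 to 0.09. Over the 123 kept genes of these lists together, 12 were higher and 1 was lower, with a median of 0.05. That is 9.76% and 0.813%, beside 7.03% and 4.69% of all kept genes, and 6 of the 12 were the kinases and sensors. With the trend removed 0 were higher and 3 lower of the 121 with a value, beside 2.55% and 3.5% of all genes with a value.

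**Figure D4:**
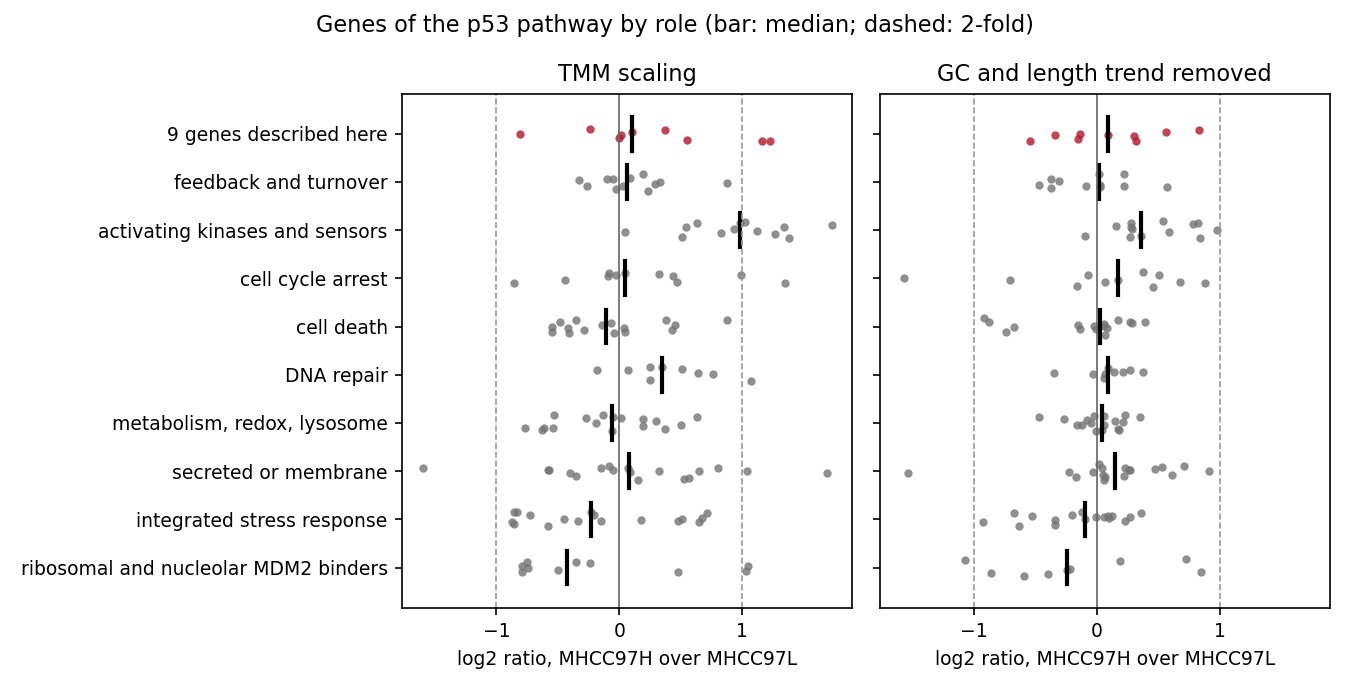
Log2 ratio of MHCC97H over MHCC97L (horizontal axis) of the kept genes of each list (rows), under TMM scaling (left) and with the GC and length trend taken out (right); the 9 genes are red, bars are medians and dashed lines mark 2-fold. The activating kinases and sensors have a median of 0.98 at left and 0.36 at right; the other rows have medians from -0.43 to 0.35 at left.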

How the data were processed

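Per the labels' protocols, Trizol RNA was poly(A)-isolated and made into libraries with NEBNext kits. The deposited values are raw read counts per gene, unscaled. The submitters' processing notes name HTSeq 0.11.2, HISAT2 2.1.0, bcl2fastq and the hg19 build. The annotation, the strand setting and the handling of multi-mapped reads were not given in the sources used here.

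Genes with at least 1 CPM of total counts in at least 1 library were kept. Scaling was by TMM on kept genes (edgeR 4.0.16, R 4.3.3; factors 1.06 for MHCC97H and 0.942 for MHCC97L), and a prior count of 0.5 entered each log2 ratio (MHCC97H over MHCC97L). Intervals are exact at 95%: binomial for ratios, Poisson for levels, conditional for ratios of ratios. GC content and length came from the longest coding transcript per gene in GENCODE 29 (95.2% of kept genes matched), and the trend was removed by lowess with a span of 0.2. No test across samples could be made. Python 3.11.15, numpy 2.4.6, pandas 2.3.3, scipy 1.17.1, statsmodels 0.14.6 and, for size factors, DESeq2 1.42.0 were used, and the steps were tested on simulated data. The members and lists were chosen with earlier results of these data known. A listed gene is not reported here. Named genes were all members, their closest paralogs and, per list, up to 4 genes of at least 5 CPM past the 2-fold rule or, where fewer than 2 passed, the most abundant. The cell type markers, RPL23 and genes marked as such in the text were named outside that rule, after their values were seen.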

Additional observations from a re-analysis of the deposited data

How the results depend on the processing

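Total counts moved every log2 ratio up by 0.17, so that CDKN1A stood at -0.07, GADD45A at 0.28, SESN2 at 0.18 and BBC3 at -0.63, and 1654 kept genes were higher. The DESeq2 size factors and the upper quartile moved the ratios by -0.025 and 0.017, and neither these, total counts, a prior count of 2, either filter nor an assumed coefficient of variation of 0.2 changed the number of members higher (2) or lower (0). MDM4 and SESN2, near equality, change sign within those shifts. With the GC and length trend taken out, the log2 ratios were 0.56 for MDM2, -0.54 for MDM4, 0.09 for CDKN1A, 0.30 for GADD45A, 0.83 for SESN1, 0.32 for SESN2, -0.15 for BBC3, -0.14 for TP53INP1 and -0.34 for ZMAT3. Then 0 members, 354 kept genes and 0 other pathway genes were higher, and 3 other pathway genes lower. With the trend with GC content alone removed, chosen after seeing the data, they were 0.69, -0.43, 0.06, 0.18, 0.87, 0.35, -0.22, -0.05 and -0.23 in the same order, with 0 members, 329 kept genes and 2 other pathway genes higher and 4 other pathway genes lower. With no filter 1449 kept genes and 2 other pathway genes were lower, and with a filter at 5 CPM 225 and 0. At 1.5-fold, 2811 kept genes were higher and 2011 lower, with 1 member lower. The cause of these differences was not tested beyond the construction of each alternative. No paired analysis was possible because each line has 1 library. Counting error at 145 reads, the lowest count of a member, still left the SESN1 interval from 1.95 to 2.86, whereas differences between cultures were not measured.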
